A study of Mus musculus with 6 samples.

Results

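The mitochondrial ribosome carries the proteins whose genes are named Mrpl (large subunit) and Mrps (small subunit). These genes were taken from a comparison of the mouse B-cell line 230-238 carrying GFP alone or GFP together with FOG1, as every gene whose symbol begins with Mrpl or Mrps and a digit and that was measured by a probe set annotated with exactly 1 symbol. They came to 77 of 19937 such genes, 48 of the large and 29 of the small subunit, and for each gene the probe set with the highest mean signal over the 6 arrays was used. Both groups were infected with a plasmid, one encoding green fluorescent protein (GFP) and the other GFP and FOG1, a protein encoded by Zfpm1 that binds GATA transcription factors and modifies their activity. Cells were grown for 3 days, sorted for GFP fluorescence and grown for 4 days more. Each group had 3 arrays of 1 cell line, labelled as biological replicates, and nothing in the labels says that the infections were separate, so the p-values measure only the spread between these samples. The promoter that drove FOG1 is not given in the sources used here.

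Mitochondria keep their own ribosomes, which translate a small set of membrane proteins of the respiratory chain and the ATP synthase from mitochondrial messenger RNA. All proteins of these ribosomes are encoded in the nucleus, made in the cytosol and imported. Some descend from proteins of bacterial ribosomes, and others were added during the evolution of mitochondria. Dividing cells, lymphocytes included, must make new mitochondrial ribosomes to keep building respiratory complexes.

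Signals are given on the log2 scale, and a change is the mean of the GFP+FOG1 arrays minus that of the GFP arrays. Each array was close to the others (pairwise correlations of 0.9925 to 0.9960 over 34760 probe sets), and GFP+FOG1 replicate 1 lay nearest to the GFP arrays on the first principal component, at 1.15 against 17.0 and 24.3 for replicates 2 and 3 and -16.1 to -11.4 for the GFP arrays. Zfpm1 was higher on all GFP+FOG1 arrays, at 10.21, 10.16 and 10.17 against 9.41, 9.49 and 9.43 (log2 change 0.74, SE 0.045; limma adjusted p = 0.0038). Of 12 measured B-lineage markers, 11 reached the median of all values, 6.999, as did 1 of 7 T-lineage, 1 of 7 myeloid, 1 of 6 erythroid and megakaryocyte and 3 of 5 fibroblast markers. By the mean over all 6 arrays the brightest of each list were the pre-B receptor chain gene Igll1, Cd3e, Cd68, Itga2b and the collagen gene Col1a1, with means in GFP cells of 13.08 (Igll1), 7.04 (Cd3e), 9.53 (Cd68), 7.07 (Itga2b) and 9.65 (Col1a1). Col1a1 read 9.90, 9.61 and 8.99 on the GFP+FOG1 arrays. The summed linear signal of the 5 fibroblast markers was 1691 to 1957 on the GFP arrays and 1294 to 2194 on the others, so the groups overlapped. That of the 12 B-lineage markers did not overlap, at 49310 to 50746 on the GFP arrays and 46166 to 48248 with FOG1. Within it the B-cell receptor chain gene Cd79a read 13.09, 13.10 and 13.07 against 12.59, 12.77 and 12.70 (log2 change -0.41, SE 0.059; limma adjusted p = 0.088). Cd79b changed by -0.16 (limma adjusted p = 0.25) and Rag2 by 0.23 (limma adjusted p = 0.33). The other B-lineage markers, Igll1, Ebf1, Vpreb3, Pax5, Blnk, Blk, Cd22, Vpreb1 and Rag1, changed by -0.02 (Blnk) to 0.07 (Vpreb3). The part of either marker list in the results was not tested.

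Mrpl20 was the only one of the 77 genes that passed the test. Its signals were 8.74, 8.74 and 8.86 on the GFP arrays and 9.25, 9.30 and 9.32 on the GFP+FOG1 arrays. All 3 arrays with FOG1 lay above all 3 without it, and the groups were far from overlapping. Mrpl20, the counterpart of a bacterial protein that binds ribosomal RNA early in assembly of the large subunit, thus rose 1.43-fold, from 8.78 ± 0.07 to 9.29 ± 0.04 (SD, n = 3 per group; log2 change 0.51, SE 0.053, 95% interval 0.39 to 0.64; limma with Benjamini-Hochberg adjustment over all probe sets, adjusted p = 0.028). Over all probe sets 0.224% passed, 0.104% as rises. Whichever array was left out, the change of Mrpl20 stayed between 0.49 and 0.55 while its adjusted p no longer passed. That limma adjusted p was 0.134, 0.145 and 0.080 without GFP replicates 1, 2 and 3, and 0.088, 0.163 and 0.144 without GFP+FOG1 replicates 1, 2 and 3.

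Mrpl20 lies on chromosome 4, where the RefSeq order of protein-coding genes (assembly GRCm38.p6) places Ankrd65 before it and Ccnl2 after it. Ccnl2, which encodes a cyclin of the transcription and splicing machinery, differed by 0.08 on the log2 scale (SE 0.059; limma adjusted p = 0.58). Within 4 genes on each side, the other measured neighbours Atad3a, Vwa1, Tmem88b, Mxra8 and Dvl1 had limma adjusted p of 0.72 (Dvl1) to 0.96 (Atad3a). None of these 6 neighbours passed, although the interval of Mxra8 was wide (-0.85 to 0.53). Ankrd65 and Aurkaip1 had no probe set with 1 symbol and were not analysed here.

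The promoters of Mrpl20, of Mrpl50 (the next smallest p of the large subunit) and of Mrps21 (the smallest p of the small subunit) are shown. They stand for the 1 member that passed, a higher and a lower member. Each run holds the 250 bases before the RefSeq start, read on the strand of the gene, at chr4:155802628-155802877 (plus strand) for Mrpl20, chr4:49521084-49521333 (minus strand) for Mrpl50 and chr3:95871515-95871764 (minus strand) for Mrps21, all in GRCm38.p6. Capitals mark matches to the motifs searched, on either strand: GCGCA and GCGC with 1 free base between them, bound by NRF1, a factor known for nuclear genes of mitochondria, CCGGAAG of the ETS family, which includes the mitochondrial gene regulator GABP, the E-box CACGTG, the CCAAT box and AGATAA of GATA factors.
Mrpl20: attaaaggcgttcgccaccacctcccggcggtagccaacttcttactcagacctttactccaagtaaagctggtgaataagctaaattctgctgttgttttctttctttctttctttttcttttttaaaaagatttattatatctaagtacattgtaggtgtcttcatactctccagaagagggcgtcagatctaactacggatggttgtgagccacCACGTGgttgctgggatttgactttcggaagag
Mrpl50: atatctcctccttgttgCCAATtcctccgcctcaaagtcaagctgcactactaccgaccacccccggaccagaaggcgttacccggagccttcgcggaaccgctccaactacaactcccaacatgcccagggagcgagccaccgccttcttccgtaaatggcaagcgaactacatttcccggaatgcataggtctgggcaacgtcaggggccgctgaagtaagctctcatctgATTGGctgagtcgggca
Mrps21: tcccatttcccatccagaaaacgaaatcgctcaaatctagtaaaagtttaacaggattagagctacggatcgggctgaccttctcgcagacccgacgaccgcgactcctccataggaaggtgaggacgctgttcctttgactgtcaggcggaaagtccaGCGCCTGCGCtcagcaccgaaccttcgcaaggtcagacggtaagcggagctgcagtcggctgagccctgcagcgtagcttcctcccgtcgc
Mrpl20 held 1 E-box, beginning 33 bases before the start, and no match to the other 4 motifs. Mrpl50 held 2 CCAAT boxes and Mrps21 held 1 NRF1 motif, so the 3 promoters had no motif of this search in common. RefSeq promoters were found for 68 of the 77 genes, in 74 windows. The NRF1 motif was in 13.5% of these windows, against 3.74% of all 32851 windows and 5.18% of the 21263 windows of protein-coding genes. The ETS motif was in 23.0%, against 6.91% and 8.98%. The E-box was in 9.46% (6.02% of all and 6.63% of coding windows), the CCAAT box in 36.5% (33.8% and 35.4%) and the GATA motif in 14.9% (9.99% and 8.81%). The 7 members' windows with an E-box belonged to 5 genes, because overlapping windows of Mrpl2 held the same match. In the members' windows, matches to different motifs overlapped in 1 case. Members with an NRF1 motif had a median log2 change of 0.03 (10 genes), as did the 58 without one, and the 17 with an ETS motif had 0.02 against 0.04 for those without. The 5 genes with an E-box, Mrpl20 among them, had a median of 0.09 against 0.03 without. That median is the value of 1 gene, Mrps18c. Because Mrpl20 was picked out by its change in these same values, a link of the E-box to the changes was not tested. The medians with and without a match were 0.037 and 0.032 for the CCAAT box (24 genes) and 0.032 and 0.036 for the GATA motif (11 genes). These matches describe letters in the windows and were not measured as binding. Whether a match lies in repeat sequence was not checked.

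Apart from Mrpl20, the large subunit genes lay close to their control levels. Log2 changes of the 48 genes ran from -0.14 (Mrpl42) to 0.51 (Mrpl20), with a median of 0.034. That median was 0.020 without GFP replicate 3, 0.022 without GFP+FOG1 replicate 3 and 0.050 without GFP replicate 2. Positive changes were found for 37 of 48, against 56.3% of the 10582 genes that reached the median signal, as all 77 members did. The medians were 0.013 over those brighter genes and -0.010 over all 19937. After quantile normalization of the arrays 31 of the 48 changes were positive, with a median of 0.014, against 52.3% and 0.005 for the brighter genes. After centring each array on its median 41 were positive, with a median of 0.059, against 66.6% and 0.039 for the brighter genes. The size of this small lean thus depended on the scaling, and the values of the brighter genes moved with it. At an unadjusted p under 0.05, 5 were higher and 1 lower (limma), where all probe sets gave 5.55% and 6.94% and the brighter genes 7.88% and 5.44%.

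**Figure D1:**
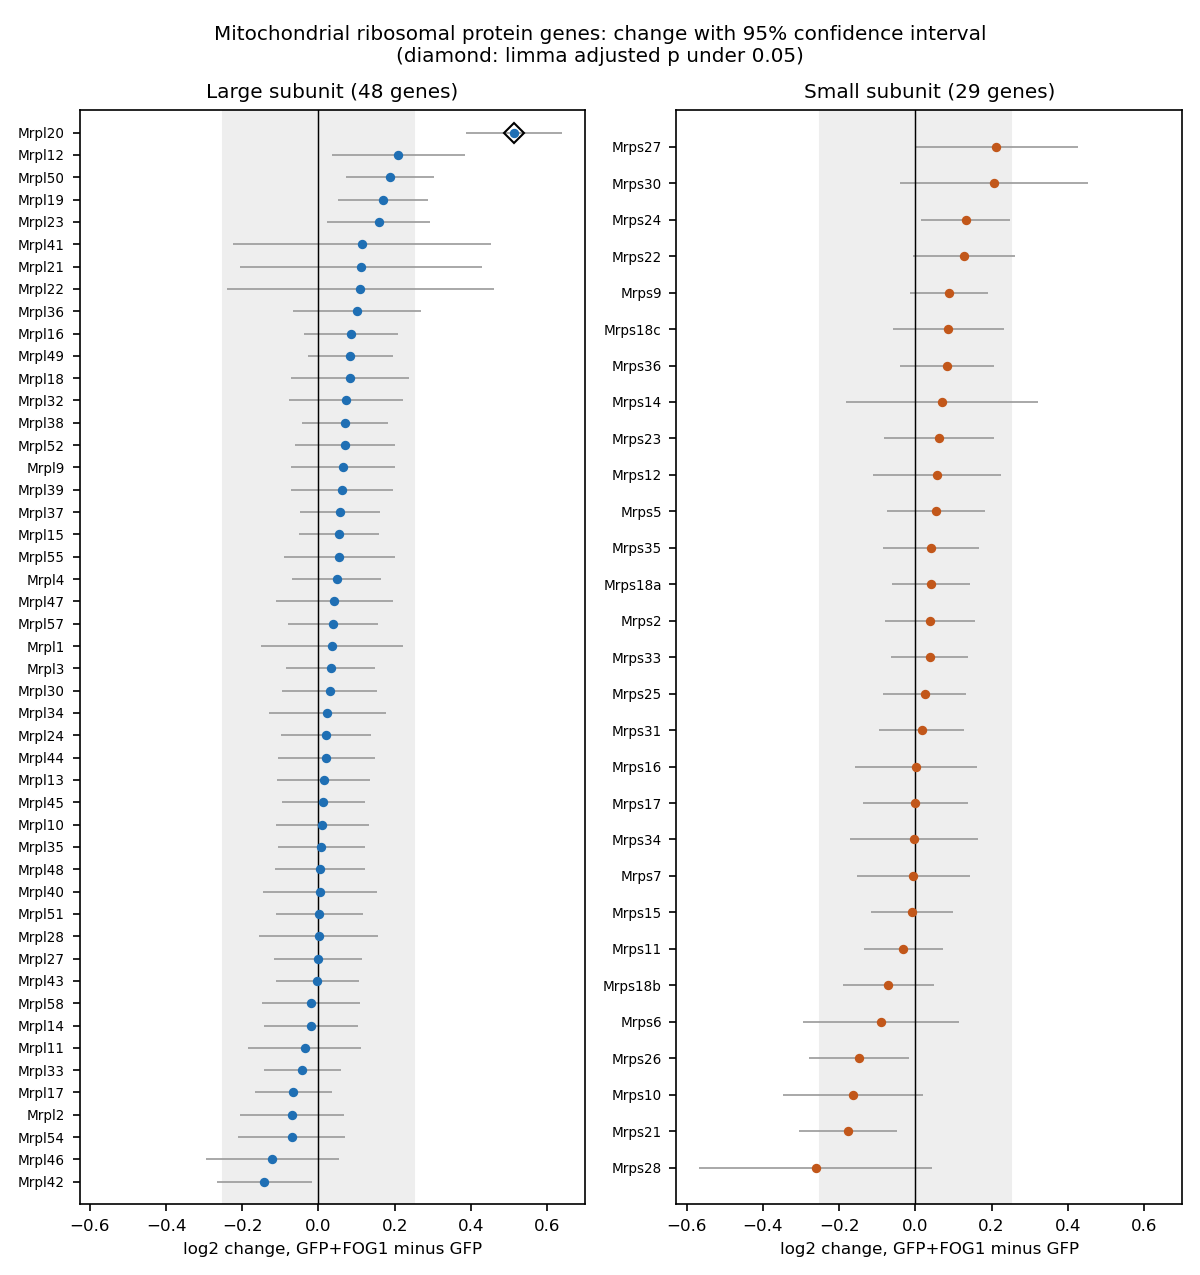
Log2 change (GFP+FOG1 minus GFP, horizontal axis) of each of the 48 large subunit genes (left) and 29 small subunit genes (right), with points for the fitted change, lines for its 95% confidence interval from limma, grey shading from -0.25 to 0.25 and a diamond for an adjusted p under 0.05. Mrpl20 stands apart at 0.51, and all other points except that of Mrps28 (-0.26) lie inside the shading.

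The large subunit genes with the smallest p after Mrpl20 were Mrpl50, Mrpl19, Mrpl12 and Mrpl23. Mrpl50, which has no bacterial counterpart, read 8.94, 8.94 and 9.03 in GFP cells and 9.15, 9.20 and 9.13 with FOG1 (log2 change 0.19, SE 0.048, 95% interval 0.07 to 0.30; limma adjusted p = 0.24). Mrpl19, whose bacterial counterpart sits at the contact between the subunits, read 9.78, 9.75 and 9.80 against 9.88, 9.998 and 9.96 (0.17, SE 0.049; limma adjusted p = 0.29). In both genes every array with FOG1 was above every GFP array, yet neither passed. Mrpl12, of the stalk that recruits translation factors, read 9.13, 9.30 and 9.25 against 9.32, 9.47 and 9.52 (0.21, SE 0.073; limma adjusted p = 0.34). Its groups nearly touched, at 9.30 for GFP replicate 2 and 9.32 for GFP+FOG1 replicate 1. Mrpl23, whose bacterial counterpart lies by the peptide exit tunnel, read 10.38, 10.51 and 10.39 against 10.55, 10.56 and 10.65 (0.16, SE 0.056; limma adjusted p = 0.35). Its dimmer probe set gave a like change of 0.17, and neither probe set passed.

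On the lower side, Mrpl42 read 7.89, 7.99 and 8.01 in GFP cells and 7.86, 7.82 and 7.78 with FOG1, a change of -0.14 (SE 0.052; limma adjusted p = 0.36). Its groups did not overlap, though GFP replicate 1 and GFP+FOG1 replicate 1 differed by little. Mrpl46 had a change of -0.12 and Mrpl54 of -0.07, both proteins of the large subunit without a bacterial counterpart. Mrpl2, whose bacterial counterpart supports the peptidyl transferase centre, was at -0.07, as was Mrpl17, which is named for a protein near the exit tunnel. Mrpl17 had a narrow spread, with 8.60, 8.56 and 8.57 against 8.53, 8.51 and 8.49, and no overlap. Mrpl49 (0.08) and Mrpl16 (0.09), the latter placed near the transfer RNA sites in bacteria, were among the 10 smallest p values on the higher side. Single arrays moved several of these small values: without GFP replicate 1 the change was -0.065 for Mrpl46, -0.030 for Mrpl54 and 0.055 for Mrpl16, and without GFP replicate 2 it was -0.025 for Mrpl2. Without GFP+FOG1 replicate 3 it was -0.081 for Mrpl46 and -0.038 for Mrpl54, and without GFP replicate 3 it was -0.107 for Mrpl54. From Mrpl49 to Mrpl54 the limma adjusted p of these 6 genes was 0.50 to 0.64.

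No small subunit gene passed. Their 29 log2 changes ran from -0.26 (Mrps28) to 0.21 (Mrps27), with a median of 0.037. At an unadjusted p under 0.05 (limma), 1 was higher and 2 were lower, against 5.55% and 6.94% of all probe sets and 7.88% and 5.44% of the brighter genes. None reached an adjusted p under 0.10, which 0.423% of all probe sets did. Positive changes numbered 19 of 29, against 56.3% of the brighter genes. After quantile normalization they numbered 19, with a median of 0.020, against 52.3% and 0.005 for the brighter genes. After median centring they numbered 22, with a median of 0.063, against 66.6% and 0.039 for the brighter genes. The small subunit median was 0.012 without GFP+FOG1 replicate 3, 0.023 without GFP replicate 1, 0.018 without GFP replicate 3 and 0.025 without GFP+FOG1 replicate 2.

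Mrps21, counterpart of a small protein of the bacterial small subunit, had the smallest p here and read 11.43, 11.31 and 11.36 in GFP cells and 11.25, 11.18 and 11.14 with FOG1. All arrays with FOG1 were below all GFP arrays, by a mean of -0.18 (SE 0.054, 95% interval -0.30 to -0.05; limma adjusted p = 0.30). Mrps26, without a bacterial counterpart, read 7.89, 7.98 and 7.95 against 7.87, 7.74 and 7.76 (-0.15, SE 0.055; limma adjusted p = 0.36). It too was lower on each FOG1 array, but GFP+FOG1 replicate 1 nearly reached the GFP arrays. Mrps10 had a change of -0.16 with overlapping groups (SE 0.076; limma adjusted p = 0.44), and of -0.11 without GFP replicate 2. Mrps28 had the lowest change, -0.26, and the widest spread, at 8.75, 8.44 and 8.24 against 8.25, 8.27 and 8.13 (SE 0.127; limma adjusted p = 0.45). Its high value on GFP replicate 1 decided the size, since without that array the change was -0.13.

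Among the higher small subunit genes, Mrps24, which takes the place of a bacterial protein at the messenger RNA entry, read 9.12, 9.16 and 9.11 against 9.22, 9.32 and 9.25 (0.13, SE 0.048; limma adjusted p = 0.36). The groups did not overlap. Mrps9, whose bacterial counterpart reaches towards the transfer RNA in the ribosome, read 8.38, 8.31 and 8.35 against 8.43, 8.44 and 8.43 (0.09, SE 0.043; limma adjusted p = 0.44). Mrps22, a gene mutated in a mitochondrial disease of humans, had a change of 0.13, with GFP+FOG1 replicate 1 at 9.02 just above the highest GFP array at 9.01. Mrps27, a pentatricopeptide repeat protein of the small subunit, read 7.92, 8.05 and 7.84 against 8.17, 7.995 and 8.28 and so overlapped (0.21, SE 0.089; limma adjusted p = 0.40).

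**Figure D2:**
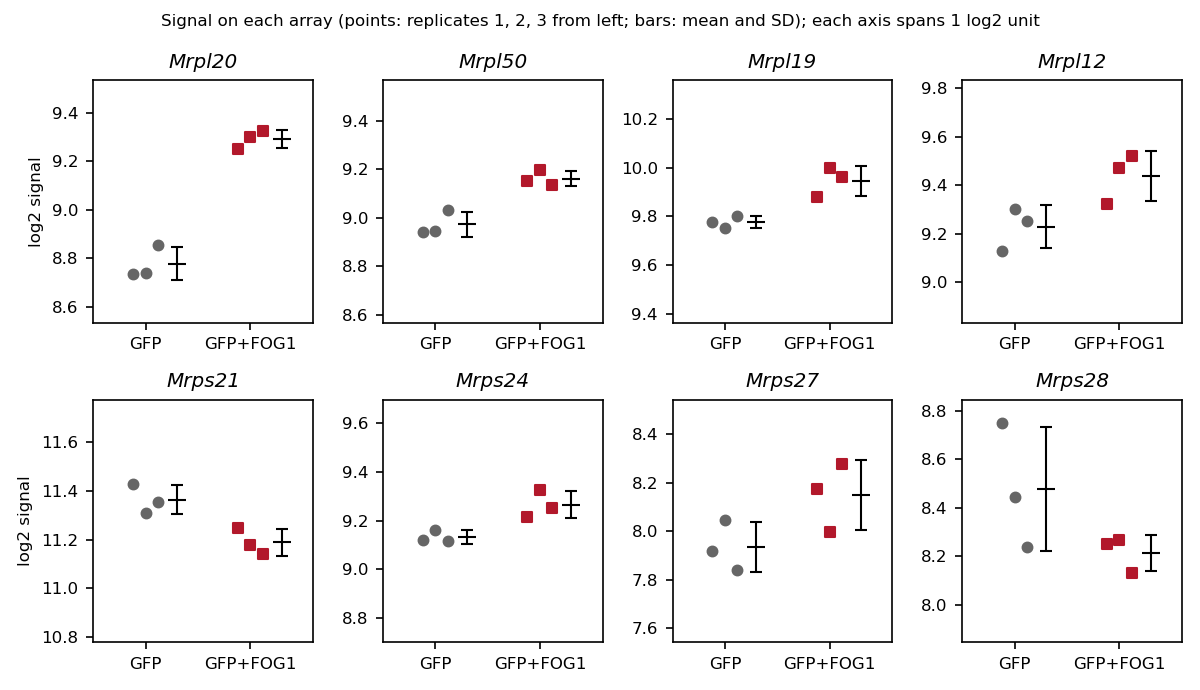
Log2 signal (vertical axes, each spanning 1 log2 unit) of 4 large and 4 small subunit genes on each GFP array (grey circles) and GFP+FOG1 array (red squares), with bars for the mean and SD of 3 arrays. The gap of Mrpl20 is wider than those of Mrpl50, Mrpl19, Mrps21 and Mrps24, and Mrps28 shows the high GFP replicate 1.

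Some genes carry a symbol that differs from their place. The proteins of Mrps18a and Mrps30 are found in the large subunit of the mammalian mitochondrial ribosome, and the protein of Mrps36 is known as a part of the oxoglutarate dehydrogenase complex. Mrps18a differed by 0.04 on the log2 scale (SE 0.043; limma adjusted p = 0.71), Mrps30 of 0.21 (SE 0.102; limma adjusted p = 0.46) and Mrps36 of 0.08 (SE 0.051; limma adjusted p = 0.53). The change of Mrps30 was 0.11 and that of Mrps18a 0.03 without GFP+FOG1 replicate 2, and that of Mrps36 was 0.05 without GFP replicate 1. With Mrps18a and Mrps30 moved to the large subunit and Mrps36 left out, the medians were 0.037 for the large and 0.020 for the small subunit, and Mrpl20 was again the only gene that passed. Members were also split by the number in their symbol alone, and the origin of single proteins was not checked. Mrpl1 to Mrpl36, Mrps2 to Mrps21 and Mrps24 were counted as having a bacterial counterpart. They had medians of 0.034 (28 large subunit genes) and 0.002 (17 small subunit genes). The rest, counted as particular to mitochondria, had medians of 0.029 (20 large subunit genes) and 0.040 (12 small subunit genes). Mrps18a, Mrps30 and Mrps36 stayed with the small subunit in this split. None of these medians reached 0.05 in either class.

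The intervals limit how far the other members could have moved. The 95% interval of the log2 change lay wholly within -0.25 and 0.25 (1.19-fold) for 57 of the 77 genes, 37 of the large and 20 of the small subunit, as it did for 69.3% of genes at or above the median signal. It lay within -0.5 and 0.5 (1.41-fold) for 75 genes, and the exceptions were Mrpl20 and Mrps28. The widest of the other intervals reached 0.46 for Mrpl22 and 0.45 for Mrpl41 and Mrps30. Mrpl22 read 7.11, 7.72 and 7.46 on the GFP arrays and 7.55, 7.49 and 7.58 with FOG1, with a wider spread on the GFP arrays. It and Mrpl41 were chosen here for their intervals, after their values were seen.

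All 3 arrays with FOG1 lay above all GFP arrays for 6 large subunit genes (12.5%) and 3 small subunit genes (10.3%). They lay below all GFP arrays for 2 of each (4.17% and 6.90%). Over all probe sets 9.13% lay above and 10.5% below, and over genes at or above the median signal 16.4% and 9.21%. The members' shares above thus lay between these 2 backgrounds, and their shares below lay under both, with 2 genes in each subunit. Without GFP replicate 2 the counts above were 14 of 48 and 9 of 29, where the background was 15.7% of all probe sets and 26.0% of the brighter genes. They were 12 and 11 without GFP+FOG1 replicate 1 (17.3% and 27.9%) and 10 and 6 without GFP+FOG1 replicate 2 (13.5% and 20.8%). With each array centred on its median they were 15 and 7 (14.1% and 25.3%).

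To set the 6 arrays side by side, each gene's deviation from its own GFP mean was taken on each array. The median deviation of the large subunit was -0.005, 0.031 and -0.013 on the GFP arrays and 0.015, 0.026 and 0.064 on the GFP+FOG1 arrays. That of the small subunit was -0.017, 0.031 and -0.018 against 0.015, 0.036 and 0.044. GFP replicate 2 thus lay above GFP+FOG1 replicates 1 and 2 for the large subunit, and the groups overlapped for both subunits. The genes at or above the median signal read -0.010, 0.024 and -0.012 against 0.013, 0.006 and 0.029, with GFP replicate 2 again the highest of its group.

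**Figure D3:**
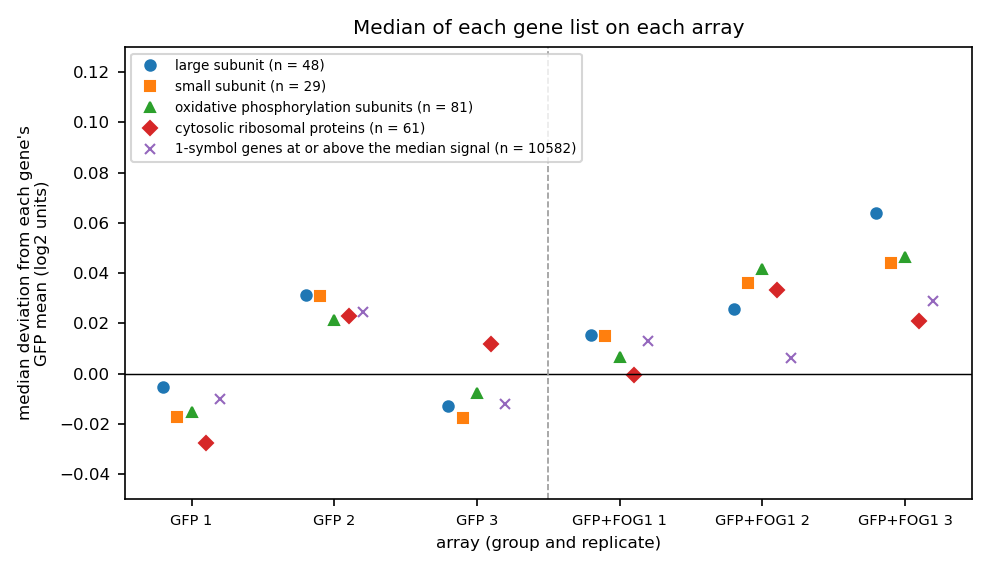
Median deviation from each gene's GFP mean (vertical axis, log2 units) on each of the 6 arrays (horizontal axis), for the large and small subunit, the oxidative phosphorylation subunits, the cytosolic ribosomal proteins and all genes at or above the median signal. GFP replicate 2 is raised for all 5 lists, and GFP+FOG1 replicate 3 is highest for every list except the cytosolic ribosomal proteins.

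The 77 genes were read by 85 probe sets, since 8 genes had 2 each. For Mrps5, Mrpl41, Mrpl23 and Mrps36 both probe sets had positive changes, and Mrpl47 had 0.04 and -0.03. Mrps33 had a change of 0.04 at its bright probe set and 0.30 at the dim one, whose GFP mean of 5.15 lay at percentile 16.2 of all probe sets (SE 0.119; limma adjusted p = 0.38). Mrpl27 had -0.002 at the bright and -0.14 at the dim probe set, and Mrpl51 0.003 and 0.11. RefSeq lists pseudogenes named after 6 members, Mrpl23, Mrpl27, Mrpl48, Mrpl51, Mrps33 and Mrps36, and 5 of these had 2 probe sets, so which copy a probe set read is uncertain for them. Mrpl20 had 1 probe set and no such pseudogene in that table. The members lie on 17 chromosomes, with the most, 11, on chromosome 11.

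The other parts of mitochondrial gene expression held no gene that passed either. For ribosomal proteins without an Mrp symbol, 4 of 5 listed genes were measured, and Chchd1 (0.15), Ptcd3 (0.12) and Dap3 (0.11) had the smallest p (limma adjusted p = 0.43 to 0.52). In the list of ribosome assembly and rRNA modification, 27 genes had a median of 0.016. Of these 17 were positive (63.0%, against 56.3% of the brighter genes). Its leading gene Tfb1m, which methylates the small subunit rRNA of mitochondria, read 8.66, 8.55 and 8.55 against 8.90, 8.87 and 8.92, a change of 0.31 (SE 0.050, 95% interval 0.19 to 0.43; limma adjusted p = 0.12). The groups were clearly apart, but the change missed the threshold. Mpv17l2, an inner membrane protein needed for assembly of this ribosome, was at -0.22 (limma adjusted p = 0.31), and Eral1, a GTPase that binds the small subunit rRNA, at 0.13 (limma adjusted p = 0.33).

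The 15 translation factors had a median of 0.062, led by the elongation factor gene Guf1 (0.16), the ribosome recycling factor gene Mrrf (0.12) and Lrpprc (0.09), which stabilizes mitochondrial messenger RNA. The 19 genes for charging of mitochondrial transfer RNA had a median of 0.042, led by Pars2 (0.17), Qrsl1 (0.14) and Ears2 (-0.10). The 12 genes of mitochondrial transcription and DNA maintenance had a median of 0.040, led by Mterf2 (0.17), Top1mt (0.10) and the protease gene Lonp1 (-0.08). Across these 3 lists the named genes had limma adjusted p between 0.35 and 0.52. Of 12 regulators of nuclear genes for mitochondria (median 0.033), the transcription factor gene Yy1 read 10.68, 10.59 and 10.54 against 10.77, 10.78 and 10.84 (0.20, SE 0.053; limma adjusted p = 0.26). The coactivator gene Ppargc1b was at 0.21 (limma adjusted p = 0.37) and Gabpa, of the GABP factor, at 0.09 (limma adjusted p = 0.50).

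The products of mitochondrial translation join nuclear-encoded subunits, and 81 oxidative phosphorylation genes had a median of 0.032. Of these 60 were positive (74.1%, against 56.3% of the brighter genes). Ndufa2 (-0.22) and Ndufs5 (-0.17) of complex I and Sdhc (0.17) of complex II had the smallest p (limma adjusted p = 0.21 to 0.28). The 61 cytosolic ribosomal protein genes had a median of 0.014, with 36 positive (59.0%), and were led by Rps15a (0.24), Rps13 (-0.16) and Rps27l (0.17; limma adjusted p = 0.23 to 0.30). None of the genes on these 8 lists passed, where 0.224% of all probe sets did. At an unadjusted p under 0.05 (limma), 7 oxidative phosphorylation genes were higher and 3 lower, and 6 cytosolic ribosomal protein genes were higher and 2 lower. The background was 5.55% higher and 6.94% lower over all probe sets, and 7.88% and 5.44% over the brighter genes. The 2 subunits of the mitochondrial ribosome had medians close to those of the oxidative phosphorylation genes.

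**Figure D4:**
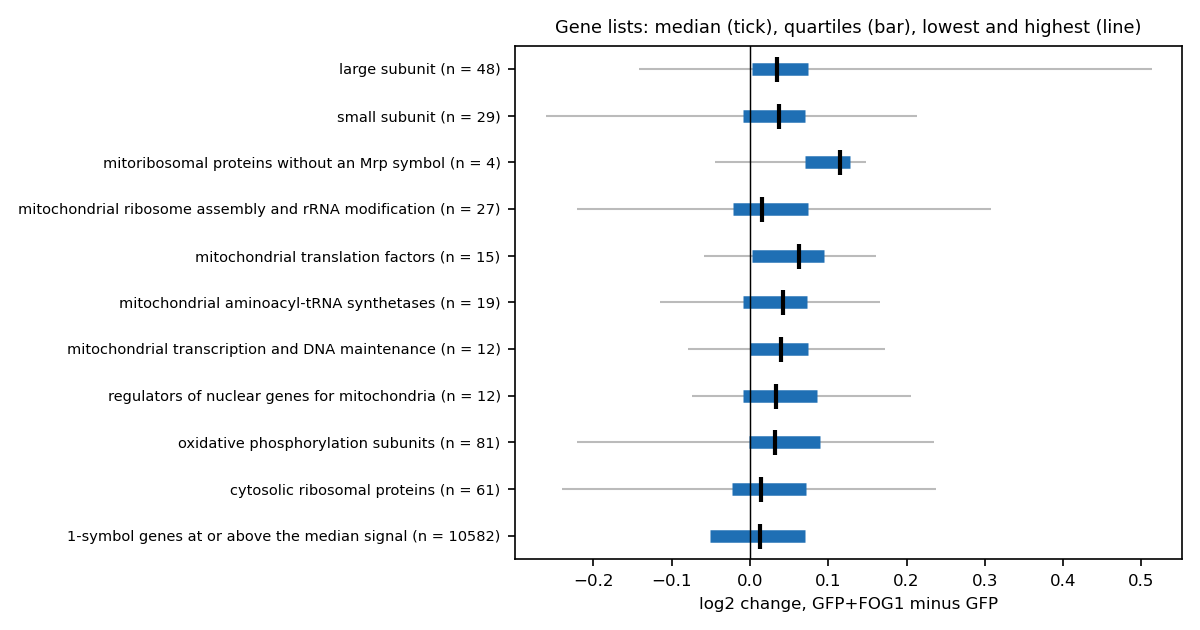
Log2 change (GFP+FOG1 minus GFP, horizontal axis) for each gene list, with ticks for the median, bars for the quartiles and thin lines from the lowest to the highest member (no thin line for the 10582 brighter genes). The medians of both subunits, 0.034 and 0.037, sit among those of the other mitochondrial lists, and the highest end of the large subunit is Mrpl20.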

How the data were processed

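RNA of 6 samples was amplified with a whole-transcript kit and read on an Affymetrix array each, per the labels' protocols. The authors deposited log2 signals, 1 for each of 34760 probe sets, and the submitters' processing notes name affy with no version. No source used here gives the background correction, normalization or probe summary. The log2 scale was read from the values (3.12 to 14.07). If the arrays were normalized to each other, a change common to most genes would be lost. The small number of arrays limits the precision.

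Gene symbols came from GEO's annotation of the platform, and the Entrez identifiers of all 77 members matched RefSeq GRCm38.p6. Promoters are RefSeq's. An entry with several symbols was left out, which included 1 probe set naming an Mrp gene. The fit used limma 3.58.1 in R 4.3.3 (lmFit, eBayes, no block) on all probe sets, with Benjamini-Hochberg adjusted p-values (threshold 0.05), two-sided. The fit was tested on simulated data, where the threshold recovered 52.4% of log2 changes of 0.5 and 83.3% of log2 changes of 1. A change of that smaller size could thus often be missed. Named were every member past the threshold, the 10 (large) and 8 (small subunit) smallest p, the 5 and 4 lowest changes, Mrps18a, Mrps30, Mrps36 and 3 genes per pathway list. Genes and lists were chosen with earlier results of these data known. Alternatives covered scaling, filters, variance model, probe set choice, block and left-out arrays. Figures used matplotlib 3.10.9.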

Additional observations from a re-analysis of the deposited data

How the results depend on the processing

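Mrpl20 kept its direction in all 14 alternatives run for it (log2 change 0.49 to 0.55) and passed in 7 of them, with a limma adjusted p of 0.0074 (1-symbol probe sets alone) to 0.034 (quantile normalization). Its change stayed 0.513 by construction with the filters, the replicate block, the variance trend and the mean over probe sets, so those say nothing about direction. Without 1 array its change was 0.492 to 0.553 and did not pass (limma adjusted p = 0.080 to 0.163). The large subunit count was 0 in each of these cases, with fewer samples in each fit. Over all 34760 probe sets 17 to 38 passed in these fits (limma), where 78 passed in the main fit. Arrays with equal replicate numbers showed no shared deviations (r = -0.068, 0.008 and -0.040). The labels do not say whether equal numbers mark a shared infection or day, and these correlations cannot settle it. With the replicate block, Mrpl20 had a change of 0.513 (limma adjusted p = 0.152) and 0 large subunit genes passed. Over all probe sets 9 of 34760 passed with that block (limma). The small subunit count was 0 in all 18 alternatives, with the limma counts at an unadjusted p under 0.05 given above. In the refits among them, 9 (replicate block) to 116 (variance trend with robust estimation) of 34760 probe sets passed. Median centring moved the medians to 0.059 (large) and 0.063 (small) and the counts of genes with all FOG1 arrays above all GFP arrays to 15 and 7, where the background moved from 9.13% to 14.1% of all probe sets and from 16.4% to 25.3% of brighter genes. That setting also moved the median over brighter genes from 0.013 to 0.039. Without 1 array, those counts ranged from 6 to 14 for the large and 4 to 11 for the small subunit (background 11.3% to 17.3% of all probe sets and 18.4% to 27.9% of brighter genes), and the small subunit median from 0.012 to 0.049. The dimmest probe set per gene and leaving out the 6 genes with a RefSeq pseudogene were chosen after seeing the data, and both gave medians of 0.025 to 0.038 and the same calls. None of the 23 members named by rule changed direction in the 14 alternatives run for them. Among these, the filters, the replicate block and the variance trend could not alter a member's change. Mrpl47, outside that rule, had the opposite sign at its dimmest probe set. The cause of the other moves was not tested. No pseudocount was tried, since the deposited values are already logarithms.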
